A study of Mus musculus with 2 samples.

Results

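The fatty acid elongases and desaturases of mouse liver were compared between 1 array of wild-type (WT) liver and 1 array of liver from mice of the E4bp4-LKO genotype. E4bp4 is the older name of Nfil3, a bZIP repressor that reads the same DNA element as the activators DBP, TEF and HLF; the submitters describe the E4bp4-LKO mice as deficient for it and do not spell out LKO in the sources used here. The members were chosen by name: 6 elongase genes (Elovl1, Elovl2, Elovl3, Elovl5, Elovl6 and Elovl7), 2 front-end desaturase genes (Fads1 and Fads2) and 2 stearoyl-CoA desaturase genes (Scd1 and Scd2). A gene was counted where a probe set was annotated to that symbol alone, which held for 9 of the 10 named genes, out of 22180 genes on the arrays. Each of the 9 had 1 probe set. Scd2 was left out because its probe set was also annotated to the microRNA gene Mir5114.

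Both pools came from males. High-fat feeding began when they were 2 months old and lasted 12 weeks, so the diet is shared by both genotypes and no chow group was compared here. Light and dark phases lasted 12 hours each. Each array carried liver RNA pooled over mice of 1 genotype. The sources used here give neither the number of mice in a pool, nor the hour of collection, the strain or how the gene was deleted. With 1 pooled array per genotype there is no replicate error and no test of any difference below. In bulk liver, fewer cells of a type and less RNA per cell cannot be told apart.

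Elongases lengthen fatty acyl-CoA at the endoplasmic reticulum, in the condensing and rate-limiting step of a cycle that a reductase, a dehydratase and a second reductase complete. Desaturases insert double bonds with electrons passed on by cytochrome b5 and its reductase. Together they turn palmitate into stearate and oleate, turn dietary linoleic and alpha-linolenic acid into arachidonic acid and docosahexaenoic acid, and build the very long chains of sphingolipids. Liver is a site of these conversions, and several of the genes are textbook targets of SREBP-1c, LXR and PPARα.

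Values are log2 intensities. Each gene's 2 values were averaged, and the median of these averages (4.20) served as a floor below which a gene was treated as dim; 11090 genes lay above it. Differences are E4bp4-LKO minus WT, so a positive one means a higher value on the E4bp4-LKO array. Probe sets differ in how strongly they hybridise, so levels are compared between the arrays for 1 gene and not between genes. As a check of the labels, Nfil3 itself was at 5.94 on the WT array and at 4.47 on the E4bp4-LKO array, a difference of -1.47. The hepatocyte marker genes Alb, Ttr, Apoa1, Serpina1a, Asgr1 and Hnf4a were all above the floor on both arrays and differed by between -0.04 and 0.14.

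Of the 9 members, 8 lay above the floor. Elovl3 was 1.5-fold or more higher on the E4bp4-LKO array, against 1.51% of all genes above the floor. No member was 1.5-fold or more lower, against 2.06% of all genes. The other 7 members above the floor differed by between -0.18 and 0.14, a range that also held 56.4% of all genes above the floor. The median difference of the 8 was 0.06, and that of all genes above the floor was -0.02. On these 2 arrays, then, a single elongase gene stood far from the rest of the family while the genes of the main conversions lay close to 0.

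**Figure D1:**
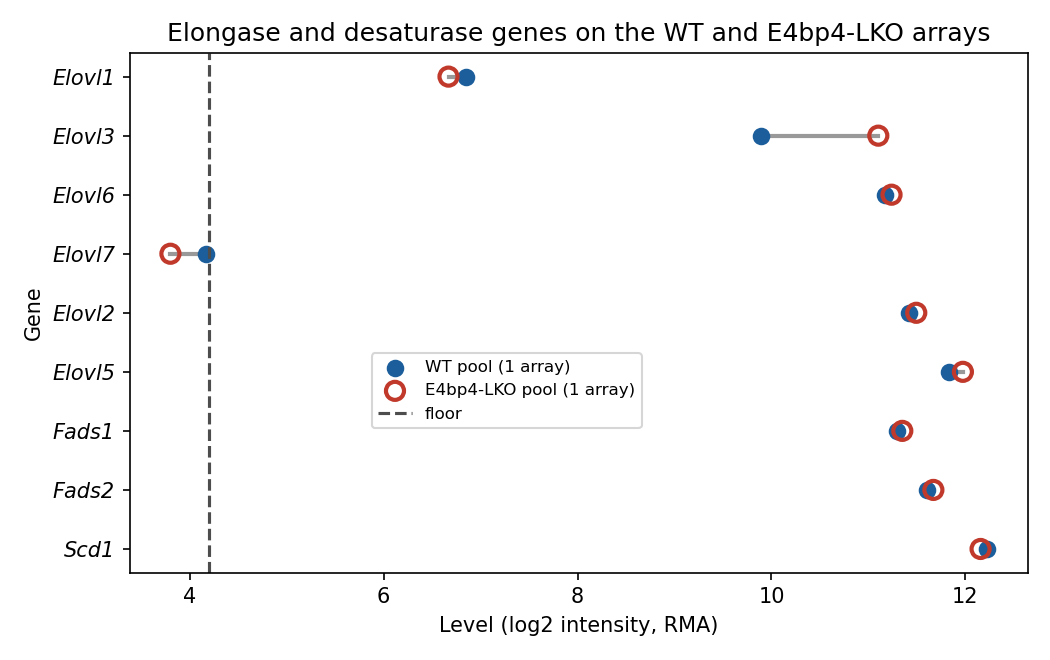
Level (log2 intensity) of the 9 members on the WT array (filled points) and the E4bp4-LKO array (open points), joined by a line; the dashed line is the floor. Elovl3 stood at 9.89 (WT) and 11.10 (E4bp4-LKO), Elovl7 lay below the floor on both arrays, and the points of the other genes nearly coincide.

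Elovl3 encodes an elongase of saturated and monounsaturated very long chain fatty acids, expressed in liver, brown fat and the sebaceous glands of the skin. In mouse liver it is known to be higher in males and to vary over the day. It stood at 9.89 on the WT array and at 11.10 on the E4bp4-LKO array. The E4bp4-LKO value was thus the higher by 1.21 on the log2 scale, which is 2.32-fold. Among the 11090 genes above the floor this difference ranked 25 from the highest, and 0.225% of the genes had a difference as high or higher. Of the 500 genes nearest to Elovl3 in mean level, the central 95% differed by between -0.39 and 0.42. For all genes above the floor the central 95% ran from -0.54 to 0.49. The difference of Elovl3 exceeded that of the next highest member, Elovl5, by 1.07. Only 1.12% of all genes were as bright as Elovl3 or brighter on the mean of both arrays, so its difference does not rest on a value near the floor.

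**Figure D2:**
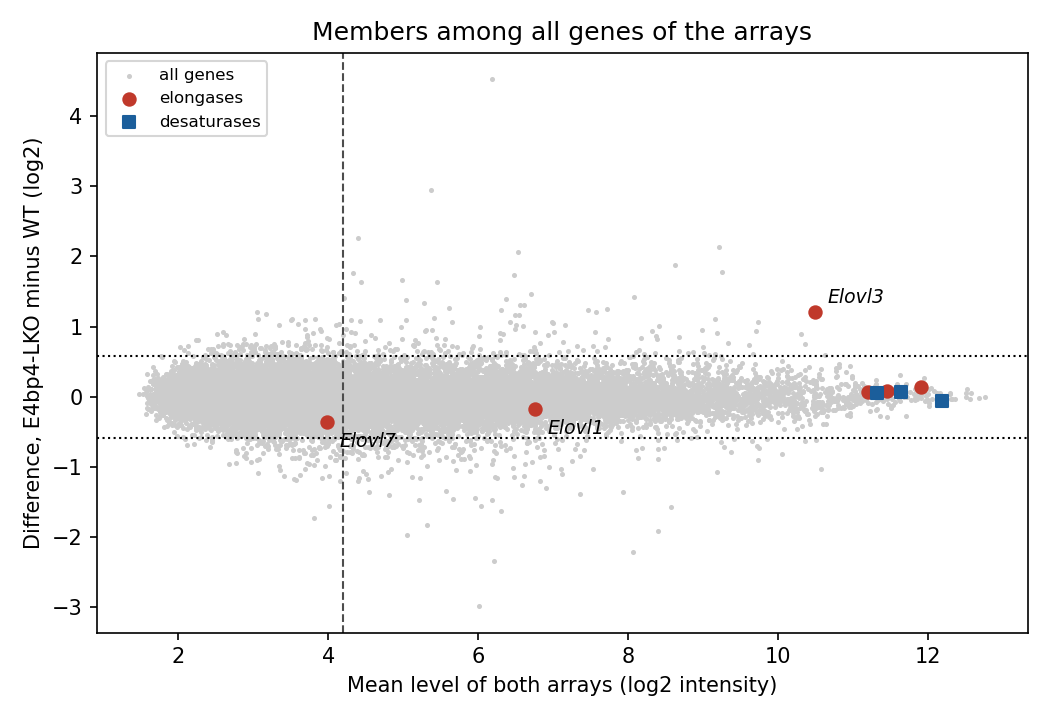
Difference (E4bp4-LKO minus WT, log2) against the mean level of both arrays (log2 intensity) for all 22180 genes (grey), the elongases (red circles) and the desaturases (blue squares). Dotted lines mark 1.5-fold and the dashed line the floor of 4.20; Elovl3 lies above the upper dotted line at a level where few genes do, and the other members lie between the dotted lines.

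The remaining elongases of saturated and monounsaturated chains had much smaller differences than Elovl3. Elovl6, which lengthens palmitate to stearate and so feeds oleate synthesis, was at 11.18 on the WT array and 11.24 on the E4bp4-LKO array, a difference of 0.06. Elovl1, which makes the saturated very long chains used in ceramides, was at 6.85 and 6.67, a difference of -0.18. Both lay inside the central 95% of the 500 genes nearest to them in level, which ran from -0.34 to 0.40 for Elovl6 and from -0.48 to 0.49 for Elovl1. Elovl7, another elongase of saturated chains, was at 4.16 on the WT array and 3.80 on the E4bp4-LKO array. Both values lay below the floor, so its difference of -0.36 has no certain size.

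The elongases of polyunsaturated chains lay close to 0. Elovl5 acts on the first polyunsaturated products of Fads2, and Elovl2 carries out the later lengthening on the way to docosahexaenoic acid. Elovl5 was at 11.84 on the WT array and 11.97 on the E4bp4-LKO array, a difference of 0.14 (1.10-fold). Elovl2 was at 11.42 and 11.49, a difference of 0.08 (1.05-fold). Each was among the brightest genes of the arrays, with at most 0.32% of genes as bright or brighter. The 500 genes nearest to them, which at this end of the scale are nearly the same genes for both, had central 95% limits of -0.34 and 0.40.

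The desaturases also lay close to 0. Fads2 catalyses the entry step of polyunsaturated fatty acid synthesis and Fads1 the later desaturation that yields arachidonic and eicosapentaenoic acid. Fads2 was at 11.61 on the WT array and 11.67 on the E4bp4-LKO array, and Fads1 was at 11.29 and 11.35, a difference of 0.06 for each. Scd1, the main stearoyl-CoA desaturase of liver and the source of oleate and palmitoleate, was at 12.22 on the WT array and 12.16 on the E4bp4-LKO array, a difference of -0.06. Scd1 is near the top of the scale, where the highest value was 12.78 on the WT array and 12.82 on the E4bp4-LKO array. Whether its spots approach saturation was not tested. Nor was it tested for Elovl2, Elovl5, Elovl6, Fads1 and Fads2, for each of which at most 0.451% of genes were as bright or brighter.

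The probe set annotated to both Scd2 and Mir5114 was at 7.45 on the WT array and 6.83 on the E4bp4-LKO array. Its difference of -0.62 is 1.54-fold lower, in the opposite direction to Elovl3. Scd2 is the stearoyl-CoA desaturase of brain and of the neonatal liver and is also expressed in cells other than hepatocytes. The share of each annotated gene in this signal cannot be read from 1 probe set. Of 6 stellate cell markers, all above the floor, all 6 had a negative difference, between -1.01 and -0.23, and 1 (Col1a1) was 1.5-fold or more lower. Over all genes above the floor, 54.5% were negative and 2.06% were 1.5-fold or more lower. The summed linear intensity of the stellate cell list was 1946 on the WT array and 1527 on the E4bp4-LKO array. Such a sum weighs the brightest probe sets most, here Dcn (10.16 on the WT array and 9.94 on the E4bp4-LKO array). Of 6 macrophage markers, 4 were negative and 2 positive, between -0.52 and 0.40, with none past 1.5-fold, and the sums were 1405 and 1416. All 5 endothelial markers were negative as well, with none past 1.5-fold, and the sums were 1587 and 1303. The part of these cell types in the lower signal of the shared probe set was not tested.

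Relatives outside the named members were mostly dim. Elovl4, the elongase of retina, skin and brain, was at 2.47 on the WT array and 3.14 on the E4bp4-LKO array. Its difference of 0.68 would pass 1.5-fold, but both values lay below the floor and its size is uncertain. Scd3 (3.13 and 3.11), Scd4 (3.33 and 3.24) and Degs2 (3.44 and 3.02) were also below the floor on both arrays. Fads3, the neighbour of Fads2, was at 5.75 and 5.82, Fads6 at 6.78 and 6.73, and the sphingolipid desaturase gene Degs1 at 7.68 and 7.58. None of these 3 relatives above the floor differed by 1.5-fold. Scd family members are close in sequence, and probe sequences were not examined, so signal shared between them cannot be told apart.

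The promoters of Elovl6 and Elovl5 are printed because, among the members with an entry in the RefSeq promoter table of GRCm38.p6, their windows carry the letters of 2 elements read by clock factors or nuclear receptors, while their signal hardly differed between the arrays. Of the 9 members counted, 6 had an entry (Elovl1, Elovl2, Elovl5, Elovl6, Elovl7 and Fads2), with 8 windows of 300 bases in all, each from 250 bases before the gene's start to 50 after it. Elovl3, Fads1 and Scd1 had none. A window of Elovl1 also holds the element found in that of Elovl6 and is not printed. Capitals mark the match. In the Elovl6 window (chr3:129532136-129532435, plus strand) it is the reverse complement of AGGTCA, the core of ROR, REV-ERB and PPAR elements, 193 bases before the start. In the Elovl5 window (chr9:77917115-77917414, plus strand) it is the canonical E-box CACGTG, the element of CLOCK and BMAL1, 161 bases before the start.
Elovl6: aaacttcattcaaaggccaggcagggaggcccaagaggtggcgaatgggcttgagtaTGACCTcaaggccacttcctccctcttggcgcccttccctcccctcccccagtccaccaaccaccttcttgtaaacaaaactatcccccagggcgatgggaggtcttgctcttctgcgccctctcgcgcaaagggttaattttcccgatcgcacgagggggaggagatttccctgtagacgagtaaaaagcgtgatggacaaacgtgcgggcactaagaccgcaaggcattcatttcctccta
Elovl5: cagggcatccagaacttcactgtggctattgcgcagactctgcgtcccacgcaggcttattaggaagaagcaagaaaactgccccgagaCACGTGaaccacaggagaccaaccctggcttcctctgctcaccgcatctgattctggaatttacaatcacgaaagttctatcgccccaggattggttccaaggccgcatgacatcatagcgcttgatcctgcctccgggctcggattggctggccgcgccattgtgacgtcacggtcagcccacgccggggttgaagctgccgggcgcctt

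Both strands were searched for 5 motifs, each spelled out in full. AGGTCA was in 2 of the 8 windows (Elovl6 and 1 of the 2 windows of Elovl1), against 16.3% of the 32851 windows in the table, and CACGTG in 1 of the 8, against 7.15%. The E4BP4 and PAR bZIP element was searched as TTATGTAA and TTACGTAA. No window of a member held either, and they occurred in 0.938% and 0.119% of all windows. TCACCCCAC, the letters of a sterol regulatory element, was in no window of a member and in 0.551% of all windows. The motifs do not overlap each other in these windows. A match is a run of letters in the window and not a measured site, and the lack of a match says only that these letters are not there. Letters beside AGGTCA were not searched, so a match of AGGTCA is not assigned to any 1 receptor.

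The partners of the elongation cycle showed no counterpart to the difference of Elovl3. Hsd17b12, which encodes the ketoacyl-CoA reductase, was at 9.44 on the WT array and 9.25 on the E4bp4-LKO array. Tecr, the enoyl-CoA reductase gene that closes the cycle, was at 10.49 and 10.43. Of the dehydratase genes, Hacd1 was at 6.52 and 6.20, Hacd2 at 10.19 and 10.12, and Hacd3 at 9.41 and 9.47, while Hacd4 was below the floor on both arrays (3.84 and 3.97). None of the 5 partners above the floor passed 1.5-fold in either direction. Their differences ran from -0.32 to 0.06, with a median of -0.07. These enzymes serve every elongase, so the machinery shared by the family and the condensing enzyme Elovl3 had unlike differences on these arrays.

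The electron chain of the desaturases was likewise close to 0. Of its 7 genes, 6 were above the floor and none passed 1.5-fold; the median difference was 0.07. Cyb5r4 (a difference of 0.21) and Cyb5rl (0.16) were farthest from 0, followed by Cyb5r1 (0.10) and Cyb5r3 (0.04), the main reductase of cytochrome b5.

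De novo fatty acid synthesis supplies palmitate to Elovl6. All 12 of its genes were above the floor, none passed 1.5-fold, and the median difference was -0.00408. Fasn, which makes palmitate, was at 10.94 on the WT array and 10.93 on the E4bp4-LKO array, and Acaca, which makes its malonyl-CoA substrate, at 9.24 and 9.18. The members farthest from 0 were Mid1ip1 (0.36), a protein that promotes polymerisation of acetyl-CoA carboxylase, Thrsp (0.30), its relative, Oxsm (-0.27) of mitochondrial fatty acid synthesis, and Acss2 (0.21), which activates acetate. From Acaca through Fasn and Elovl6 to Scd1, the path from malonyl-CoA to oleate, the differences were -0.07, -0.01, 0.06 and -0.06.

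Among 17 transcriptional regulators above the floor, none was 1.5-fold or more higher and 2 were 1.5-fold or more lower, with a median of 0.02. Over all genes above the floor the shares were 1.51% higher and 2.06% lower. Srebf1, which encodes SREBP-1 and activates Scd1, Elovl6, Fads1 and Fads2, was at 8.37 on the WT array and 8.39 on the E4bp4-LKO array. Mlxipl, the gene of the glucose-responsive factor ChREBP, was at 9.68 and 9.84, and Nr1h3, which encodes LXRα, at 7.60 and 7.80. The SREBP anchors Insig1 and Insig2 differed by -0.11 and 0.29, and Ppara by -0.17. The 2 that were lower were Bcl6 and Pparg. Bcl6, a repressor that occupies many STAT5 sites in male mouse liver, was at 7.42 on the WT array and 6.22 on the E4bp4-LKO array, a difference of -1.20 (2.30-fold). Pparg, the receptor that drives fat storage genes, was at 7.66 and 6.98 (-0.67), and the next farthest regulator was Stat5a (-0.34).

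**Figure D3:**
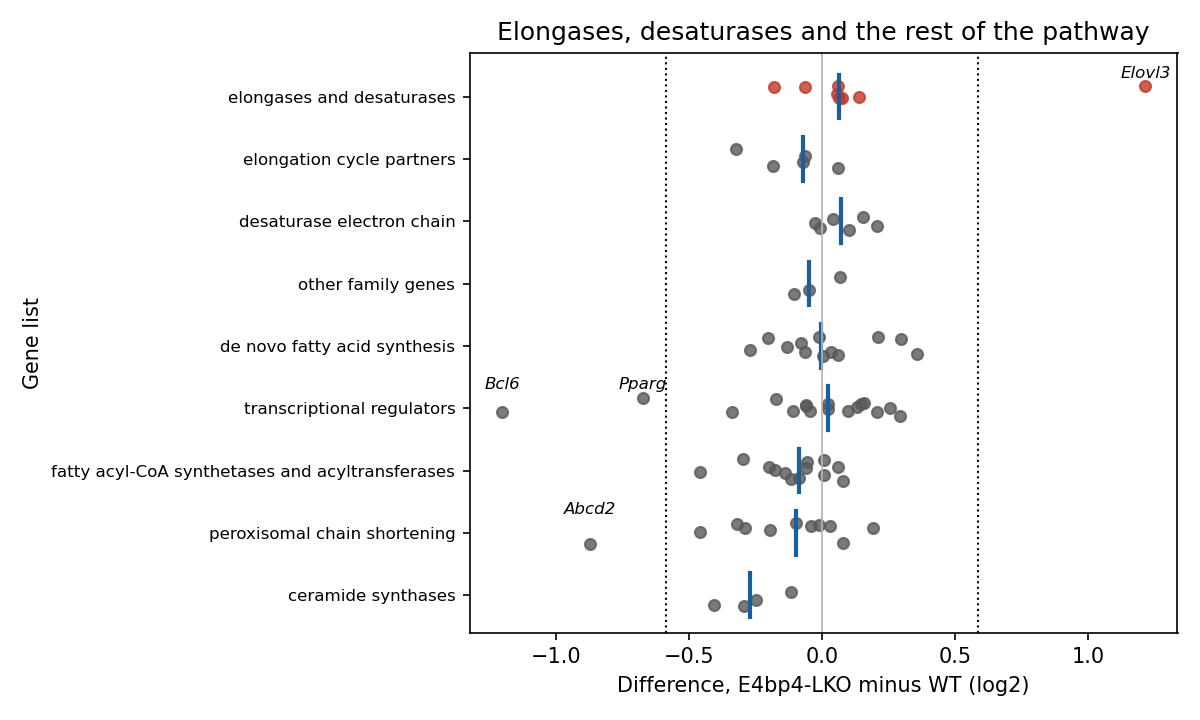
Difference (E4bp4-LKO minus WT, log2) of each gene above the floor in the elongase and desaturase list (red) and in 8 lists of the surrounding pathway (grey); vertical position within a list is random, blue bars are list medians and dotted lines mark 1.5-fold. Elovl3 is alone beyond the right dotted line, and Bcl6, Pparg and Abcd2 lie beyond the left one.

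Genes that use the products of these enzymes had mostly negative differences, as had 54.5% of all genes above the floor. All 4 ceramide synthase genes above the floor had a negative difference, with a median of -0.27 and none past 1.5-fold. Cers2, which joins very long chains of the kind Elovl1 makes to the sphingoid base, was at 7.36 on the WT array and 7.24 on the E4bp4-LKO array. Cers6 was at 7.83 and 7.53, Cers4 at 5.37 and 5.12, and Cers5 at 4.50 and 4.09, the last of these below the floor. Among 13 acyl-CoA synthetase and acyltransferase genes above the floor none passed 1.5-fold, 9 were negative, and the median was -0.09. Slc27a4 (-0.46), a transporter with very long chain acyl-CoA synthetase activity, and Dgat1 (-0.30), which completes triglycerides, were farthest from 0, followed by Lpcat3 (-0.20), which places arachidonate in phospholipids, and Slc27a1 (-0.18).

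Peroxisomes shorten the longest polyunsaturated product of Elovl2 and Fads2 to docosahexaenoic acid and degrade very long chains. Of 11 genes of this list, all above the floor, none was 1.5-fold or more higher and 1 was 1.5-fold or more lower. Over all genes above the floor the shares were 1.51% and 2.06%. In the list 8 genes were negative and the median was -0.10. The gene past 1.5-fold was Abcd2, a peroxisomal importer of very long chain and polyunsaturated acyl-CoA, at 8.57 on the WT array and 7.70 on the E4bp4-LKO array (-0.87). Acaa1a (-0.46), Acox3 (-0.32) and Pex5 (-0.29) followed, while Hsd17b4, the bifunctional enzyme that acts on these chains, differed by -0.20.

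The difference of Elovl3 was not shared by its chromosomal neighbours. In the RefSeq order of chromosome 19, the 4 protein-coding genes on either side of Elovl3 all had a value, and 6 of the 8 were above the floor. None of the 8 differed by 1.5-fold; they ran from -0.47 (Nfkb2) to 0.28 (Pitx3). The annotated span of Pitx3, a homeobox gene, overlaps that of Elovl3, and both its values (3.51 and 3.79) were below the floor. On the same chromosome, the adjoining desaturase genes Fads3, Fads2 and Fads1 differed by 0.07, 0.06 and 0.06.

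**Figure D4:**
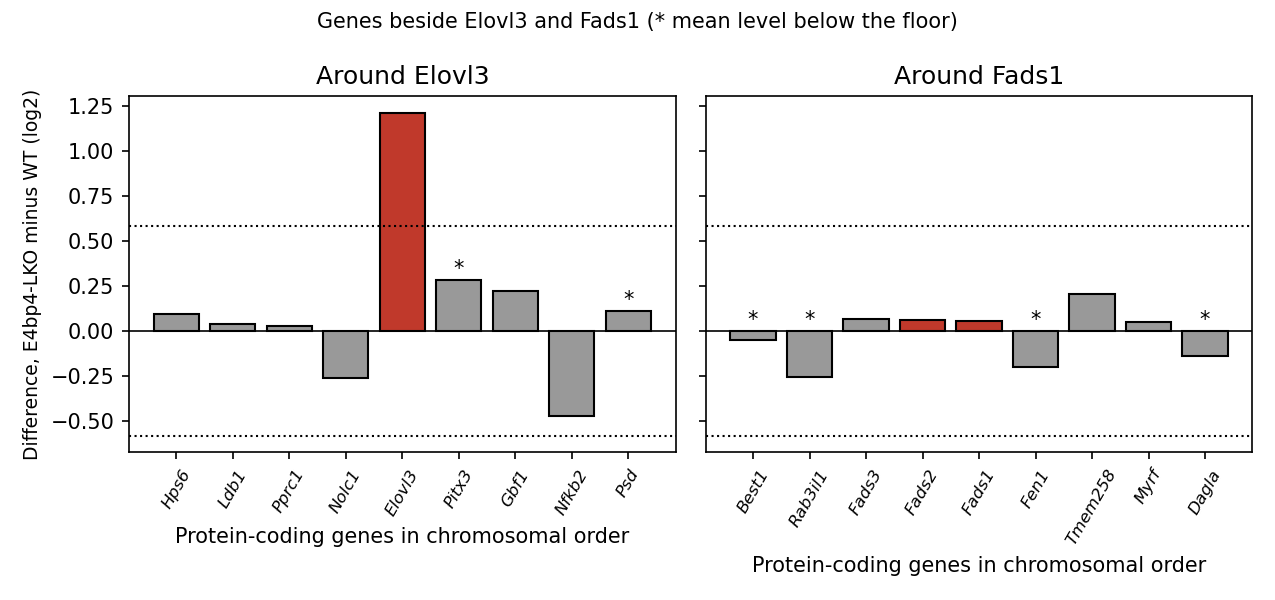
Difference (E4bp4-LKO minus WT, log2; bars start at 0) of the 4 protein-coding genes on either side of Elovl3 and of Fads1, in chromosomal order; red bars are members, stars mark genes below the floor and dotted lines 1.5-fold. The bar of Elovl3 reaches 1.21, and all its neighbours stay within the dotted lines.

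Some sex-biased and clock genes also differed between the arrays, while others in both lists stayed within 1.5-fold. Both lists below were picked after their values had been seen, so their counts are a description and support nothing about Elovl3. Of 11 genes known to be higher in male mouse liver, 6 were 1.5-fold or more higher and none lower, against 1.51% and 2.06% of all genes above the floor. The other 5 were within 1.5-fold. Of the 6, Hsd3b5 (3.92 on the WT array and 8.45 on the E4bp4-LKO array) was above the floor on the E4bp4-LKO array only. Slco1a1, a transporter gene, was at 8.14 and 10.28. Of 14 clock genes, 2 were 1.5-fold or more higher and 4 lower, against the same shares. Nr1d1, the gene of the clock repressor REV-ERBα, was at 9.56 on the WT array and 8.91 on the E4bp4-LKO array. Arntl, the gene of BMAL1, was at 5.83 and 6.74, and Dbp at 9.72 and 8.65. The other 8 clock genes were within 1.5-fold, and the median of the list was -0.04. Among these 8 were Tef (-0.22), Hlf (-0.03), Clock (-0.05), Per1 (-0.03) and Nr1d2 (0.04). The hour of collection is not given, so genotype and hour cannot be told apart, and the part of either set in the difference of Elovl3 was not tested.

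Elovl3 is also a gene of sebaceous glands and brown fat. Of 8 sebocyte and squamous epithelium markers, 3 had a mean above the floor. All 3 were 1.5-fold or more higher on the E4bp4-LKO array: Krt4 (3.90 and 6.85), Krt13 (3.26 and 5.53) and Krtdap (3.45 and 5.22). Over all genes above the floor the share was 1.51%. These 3 were below the floor on the WT array and passed it only through the E4bp4-LKO array, where they are high. Their count can thus not be read against that share, and the size of their differences is uncertain. The summed linear intensity of the list was 91.0 on the WT array and 251.2 on the E4bp4-LKO array. The sebocyte markers themselves, Mc5r (3.30 and 3.75), Awat2 (3.13 and 3.06) and Scd3, were below the floor on both arrays, as was Krt14 (2.95 and 3.14). Krt79 went the other way, from 4.35 on the WT array to 3.77 on the E4bp4-LKO array, with a mean below the floor. The part of such cells in the difference of Elovl3 was not tested. Of 6 adipocyte markers, 5 were below the floor, including the brown fat gene Ucp1 (3.25 and 3.31) and Adipoq (3.81 and 4.14). The sixth, Cidea, which fatty liver also expresses, was lower (7.38 and 5.03), opposite in direction to Elovl3. The summed linear intensity of the adipocyte list was 226.9 on the WT array and 94.3 on the E4bp4-LKO array, and without Cidea it was 60.4 and 61.6. Cidea was left out with its value known. The 5 genes that remain were all below the floor, so their sums cannot show a change in adipocytes. The part of adipocytes in the difference of Elovl3 was not tested.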

How the data were processed

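Liver RNA was measured on 2 Affymetrix mouse gene arrays, 1 pool per genotype. The values were deposited as log2 intensities, 1 per probe set; per the submitters' processing notes the authors used RMA and R 3.4.0. RMA corrects background, equalises the arrays' distributions and summarises probes, and it compresses differences of dim genes. Biotinylated cDNA was made from 400 ng of RNA, per the labels' protocols. Of 41345 probe sets, 23521 had 1 gene symbol in the platform annotation, 1814 several and 16010 none. Those with 1 symbol were averaged per gene with Python 3.11.15 and pandas 2.3.3 on the deposited log2 scale; all probe sets together had medians of 3.74 (WT) and 3.75 (E4bp4-LKO). Array number limits the precision.

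The members, lists and thresholds were chosen with earlier results of these data known. Named are Nfil3, all members, all genes of the elongation partner and relative lists, up to 4 genes above the floor with the largest absolute difference in each other pathway list plus 8 regulators and synthesis genes chosen by name, and for marker lists the range and the genes past 1.5-fold; other markers, neighbours of Elovl3 and Fads1, and the male-biased and clock genes were picked after their values were seen. Listed genes without a probe set of their own were not used here, and some items are not reported here. Endothelial (5 genes, -0.52 to -0.03) and cholangiocyte markers (2 above the floor of 4, -0.08 to 0.31) had none past 1.5-fold. The averaging and threshold steps were run on simulated data with known folds and no noise. That checks the arithmetic only and not the calls on real arrays. Alternatives covered the probe set rule, floor, centring and fold threshold. A protein comparison planned at first was not run, since no protein sequences were used here.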

Additional observations from a re-analysis of the deposited data

How the results depend on the processing

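The count of members 1.5-fold or more higher stayed at 1 under all 9 alternatives run on it: the brightest probe set per gene, probe sets with several symbols averaged in, floors at the 25th or 75th percentile or none, the median difference or an intensity trend (loess) removed, and thresholds of 1.2-fold or 2-fold. Several of these could not have changed it. Each member has 1 probe set, so the brightest is the only one. Elovl3, with a mean level of 10.49, lay above every floor tried. The count 1.5-fold or more lower stayed at 0 under 8 of them and was 1 when probe sets with several symbols were averaged in, because that admits the probe set shared by Scd2 and Mir5114. The median difference of the members ran from 0.06 to 0.08, also without Elovl3 (0.06), an alternative added after seeing the data. The difference of Elovl3 ran from 1.21 to 1.24, and no member changed sign. As a measure of probe disagreement only, 555 genes above the floor with 2 probe sets had a standard deviation of 0.22 between the differences of their probe sets; the members have 1 probe set each. No paired analysis was possible because each genotype has 1 array. Leaving out a replicate was not possible either, and signal over background limits Elovl7 and Elovl4.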

Other observations

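Among genes above the floor in the pathway lists, those past 1.5-fold other than Elovl3 were lower on the E4bp4-LKO array. They were Bcl6 (-1.20) and Pparg (-0.67), 2 of 17 regulators, and Abcd2 (-0.87), 1 of 11 peroxisomal genes. Over all genes above the floor, 2.06% were 1.5-fold or more lower and 1.51% higher. Counts this small do not give the lists a common direction. Abcd2 and Elovl3 both act on very long chains, 1 in import to the peroxisome and 1 in synthesis, and their differences had opposite signs (-0.87 and 1.21). They were set side by side after their values were seen. Elovl1, which also makes very long chains, differed by -0.18, so the signs do not divide synthesis from import. Each difference is a value of 1 pair of pooled arrays.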
